A study of Mus musculus with 2 samples.

Results

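The genes described here are p53 and its direct regulators in mouse embryonic stem cells (mESCs) depleted of AIMP3. They are 8 genes chosen by name, by a rule that uses no measured value, though earlier results of these data were known when the rule was made. They comprise Trp53, which encodes p53, its family member Trp73, the ubiquitin ligases Mdm2 and Rchy1, the Mdm2 partner Mdm4, the deubiquitinase Usp7, the phosphatase Ppm1d and the p53-binding protein gene Trp53bp1. All 8 were found on the array through the accession that the scanner output gives for each feature. They were covered by 13 features (probe sequences), and all 8 were among the 24031 genes tested.

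The cells carried loxP-flanked AIMP3 alleles and a tamoxifen-dependent Cre recombinase (AIMP3f/f;cre-ERT2) and were derived from mouse blastocysts. AIMP3 belongs to the complex in which several aminoacyl-tRNA synthetases are held together. In the AIMP3-depleted group, cells received 2 μM tamoxifen for 4 days in medium with LIF, with 2 replicates. Control cells had the same genotype and received ethanol, and RNA from 2 control replicates was combined into 1 pool. The control cells therefore carried the recombinase without the drug, and the samples include no cells without loxP alleles that received the drug. Each AIMP3-depleted RNA was labelled with Cy5 and hybridized to 1 Agilent array against the pool in Cy3. The dyes were not swapped, so a difference between the dyes for a given gene cannot be told apart from AIMP3 depletion. The pool counts as 1 control sample, so a ratio tested against 0 carries no spread among controls.

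The 2 arrays shared a slide and a scan. Between 59.3% and 60.6% of spots were well above background in a channel. Eef1e1, which encodes AIMP3, had log2 ratios of AIMP3-depleted over control of -0.90 (replicate 1) and -0.90 (replicate 2; adjusted p = 5.02e-05 by limma). All 10 markers of mESCs were well above background in both channels, and 0 of them passed the threshold given below. On both arrays 4 of the 10 were higher and 5 lower, and 8 had an adjusted p under 0.05 by limma at any fold (3 higher and 5 lower, beside 30.6% and 23.7% of all genes), with Sox2 lowest at -0.53 and Dppa5a highest at 0.50. Cells were generally grown on mouse embryonic fibroblast feeders, and drugs were given in medium conditioned by such cells. All 9 fibroblast markers measured of the 10 listed were well above background in both channels and were higher on both arrays, with a summed processed signal between 52375 and 53016 in the control and between 68466 and 68555 in AIMP3-depleted cells. Of these 9, 6 passed the threshold as raised, beside 5.52% of all genes, and their median log2 ratio was 0.77. The tenth, Lum, was not among the genes tested. All 10 markers of primitive and parietal endoderm were also higher on both arrays, with sums between 70403 and 76284 in the control and between 147954 and 155380 after depletion. All 10 passed as raised, with a median log2 ratio of 1.16. The part of this shift in the results below was not tested. In RNA from whole cultures, a change in the share of cells of a type and a change of RNA per cell cannot be told apart.

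p53 is a transcription factor that is made and destroyed continuously in unstressed cells, so that its amount is set mainly by protein turnover. Mdm2 attaches ubiquitin to p53 and thereby marks it for degradation, and Mdm4 binds Mdm2 and masks the activation domain of p53. Mdm2 and Ppm1d are themselves transcribed under the control of p53, which closes negative feedback loops. In mESCs, p53 is known for its part in the response to DNA damage and in differentiation. Arrays measure RNA only, so the amount, modification and location of the p53 protein are outside these data.

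The start regions of the members are shown because p53 acts on genes through binding sites in their DNA. The windows are from RefSeq (build GRCm38.p6), cover 250 bases before and 50 bases from a transcription start, and number 11 for the 8 members. The array was designed on another build (mm9), and only gene names connect it with these windows. The windows were searched for the decameric p53 half-site (by its name, allowing no mismatch), the cAMP response element TGACGTCA, the E-box CACGTG and the GC box GGGCGG, on both strands. The first 3 motifs read the same on both strands. None of the matches shown in capitals overlap each other. A half-site was present in 4 windows, those of Mdm2, Ppm1d and Trp53 and 1 of the 2 windows of Rchy1, and these are printed with the half-site, the cAMP response element and the E-box in capitals.
Mdm2, chr10:117710709-117711008, minus strand: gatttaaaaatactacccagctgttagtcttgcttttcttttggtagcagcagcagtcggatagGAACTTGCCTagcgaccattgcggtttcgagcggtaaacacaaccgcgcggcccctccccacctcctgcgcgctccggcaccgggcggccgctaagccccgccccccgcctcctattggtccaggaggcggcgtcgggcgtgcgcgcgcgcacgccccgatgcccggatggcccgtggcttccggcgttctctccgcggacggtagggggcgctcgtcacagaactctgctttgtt
Ppm1d, chr11:85311004-85311303, plus strand: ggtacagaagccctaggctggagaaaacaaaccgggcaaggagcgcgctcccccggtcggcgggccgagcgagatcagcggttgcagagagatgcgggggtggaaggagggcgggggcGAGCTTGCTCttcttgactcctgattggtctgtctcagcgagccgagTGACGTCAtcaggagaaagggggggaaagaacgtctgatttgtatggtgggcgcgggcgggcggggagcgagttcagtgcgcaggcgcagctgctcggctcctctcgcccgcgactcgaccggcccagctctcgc
Trp53, chr11:69580109-69580408, plus strand: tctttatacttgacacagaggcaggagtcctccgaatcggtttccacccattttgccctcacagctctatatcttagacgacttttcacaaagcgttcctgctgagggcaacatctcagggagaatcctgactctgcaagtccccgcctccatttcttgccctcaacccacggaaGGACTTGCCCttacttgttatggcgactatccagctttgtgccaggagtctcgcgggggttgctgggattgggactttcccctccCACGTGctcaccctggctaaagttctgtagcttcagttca
Rchy1, chr5:91962507-91962806, minus strand: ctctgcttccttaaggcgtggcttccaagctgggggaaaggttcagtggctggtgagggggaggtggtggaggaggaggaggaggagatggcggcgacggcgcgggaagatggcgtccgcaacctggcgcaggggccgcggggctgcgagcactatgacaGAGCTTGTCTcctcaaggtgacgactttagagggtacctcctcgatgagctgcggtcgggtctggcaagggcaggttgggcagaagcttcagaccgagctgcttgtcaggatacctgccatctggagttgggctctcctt

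Counted from the transcription start, the half-site GAACTTGCCT of Mdm2 began at -186, GAGCTTGCTC of Ppm1d at -132, GGACTTGCCC of Trp53 at -75 and GAGCTTGTCT of Rchy1 at -90. The window of Ppm1d also held the cAMP response element at -85, and that of Trp53 an E-box at 11. A half-site was present in 36.4% of the member windows, in 8.36% of all 32851 windows and in 27.1% of the 48 windows of p53-activated genes listed below. For the cAMP response element the share of all windows was 1.79%, and for the E-box it was 7.15%. The GC box was present in 6 of the 11 member windows and in 35.7% of all windows. The windows of Mdm4, Usp7, Trp73 and Trp53bp1 held no half-site of these letters. A match is a description of the sequence and does not show that a factor binds there. The search was for single half-sites within these windows alone, so sites elsewhere in a gene are not covered.

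The threshold for a changed gene was 1.5-fold with an unadjusted p under 0.05, and p-values were adjusted over all genes by the Benjamini-Hochberg method. Among all genes, 5.52% were raised and 0.791% were lowered by this rule. Of the 8 members, 1 was raised, Mdm2, and 0 were lowered by limma, while 7 had an unadjusted p under 0.05 at any fold, as did 60.5% of all genes. At any fold, 6 members had an adjusted p under 0.05, 3 of them higher and 3 lower, while 54.3% of all genes passed that criterion, 30.6% higher and 23.7% lower. The median log2 ratio of the members was 0.02, as was that of all genes. The members thus did not move as a block, and their values are given by role.

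**Figure D1:**
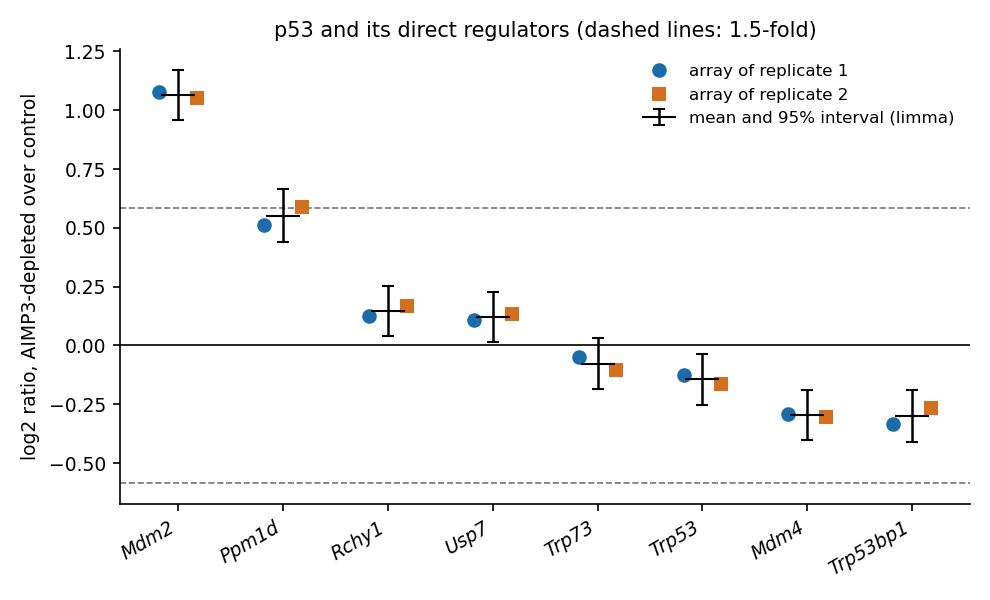
Log2 ratio of AIMP3-depleted over control for the brightest feature of each gene on the array of replicate 1 (circles) and replicate 2 (squares), with the mean and its 95% interval by limma. Dashed lines mark 1.5-fold in either direction, and only Mdm2 lies beyond them on both arrays.

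Trp53 itself, the gene at the centre of the network, had log2 ratios of -0.12 and -0.16 on the arrays of replicates 1 and 2. The mean was -0.14 ± 0.029 (SD, n = 2; adjusted p = 0.0334 by limma). Its 95% interval ran from -0.25 to -0.04. Its processed signal was 580 in the control and 512 in AIMP3-depleted cells on the first array and 551 and 484 on the second. The AIMP3-depleted signal was thus the lower on both arrays. Trp53 was printed as 2 spots on each array, which gave -0.09 and -0.16 in replicate 1 and -0.08 and -0.25 in replicate 2. Within each array the spots differed by more than the means of the arrays did. With median centring in place of loess as the dye normalization, which moved the median of all genes to 0.18, the mean ratio of Trp53 was 0.05 (adjusted p = 0.526 by limma), or -0.13 relative to that median. The adjusted p by limma was 0.0628 in the authors' deposited table and 0.0889 with no filter on dim probes, so the call for Trp53 does not hold there.

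Trp73 encodes a protein of the same family that binds similar DNA sites. Its brightest feature had log2 ratios of -0.05 and -0.10 and a mean of -0.08 ± 0.037 (SD, n = 2; adjusted p = 0.189 by limma), with an interval from -0.19 to 0.03. The signal was low, with 133 and 145 in the control and 120 and 135 after depletion. A dimmer feature gave another result, with log2 ratios of 0.67 and 0.55 (mean 0.61, adjusted p = 0.000315 by limma over all features), so that its mean passed 1.5-fold. In the control channel this feature lay only 2.22 and 2.38 times above its local background, against 4.75 and 4.25 times in the AIMP3-depleted channel. The third feature had a mean of -0.14 and was not well above background in every channel. The features of Trp73 therefore differed in sign. The files do not give which part of the transcript a feature reads.

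Mdm2, the main ubiquitin ligase of p53, was the member that passed the threshold. Its processed signal was 13858 in the control and 28018 after depletion on the first array, and 14036 and 29091 on the second. Both AIMP3-depleted values lay above both control values by more than the arrays differed. The log2 ratios were 1.08 and 1.05, with a mean of 1.06 ± 0.017 (SD, n = 2; adjusted p = 3.62e-05 by limma) and a 95% interval from 0.96 to 1.17, which is a 2.09-fold rise. Of all genes tested, 0.907% had a higher log2 ratio, and Mdm2 held place 219 from the top. The control channel differed between the arrays by 0.02 on the log2 scale. Mdm2 was read by 1 feature, which was bright and not saturated.

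Mdm4, which resembles Mdm2 and restrains p53 with it, went the other way. Its signal was 896 in the control and 715 after depletion on the first array, and 861 and 685 on the second. The log2 ratios were -0.29 and -0.30, with a mean of -0.30 ± 0.0083 (SD, n = 2; adjusted p = 0.00199 by limma), short of 1.5-fold. Its dimmer feature had ratios of -0.05 and -0.10 and did not pass (adjusted p = 0.232 by limma over all features). The log2 ratio of Mdm2 exceeded that of Mdm4 by 1.37 in replicate 1 and by 1.35 in replicate 2, a mean difference of 1.36 ± 0.0089 (SD, n = 2). This difference is within an array. Median centring brought the ratio of Mdm4 to -0.09 (adjusted p = 0.253 by limma), or -0.27 relative to the median of all genes.

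**Figure D2:**
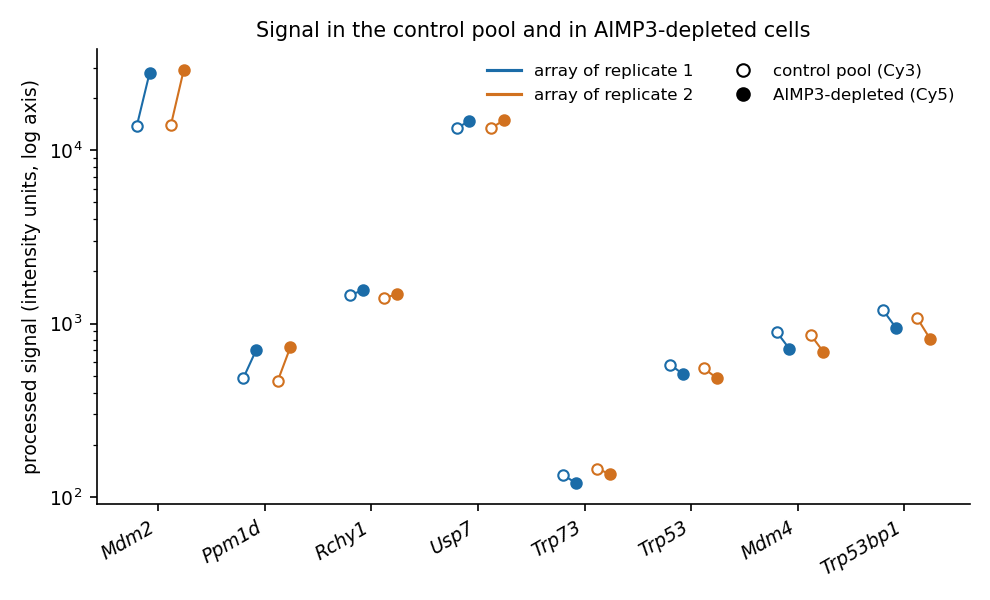
Processed signal of the brightest feature of each gene in the control pool (open circles, Cy3) and in AIMP3-depleted cells (filled circles, Cy5), with a line joining the channels of 1 array, on a log axis. Signals of different genes cannot be compared as levels, and the steepest lines are those of Mdm2, from about 13858 to 28018 on the array of replicate 1, and of Ppm1d.

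Rchy1 encodes Pirh2, another ubiquitin ligase of p53. Its log2 ratios were 0.13 and 0.17, with a mean of 0.15 ± 0.028 (SD, n = 2; adjusted p = 0.0312 by limma). The signal was 1461 and 1406 in the control and 1556 and 1476 after depletion. The adjusted p was 0.167 by limma when the scanner's own processed signals replaced normexp and loess, 0.0869 in the deposited table and 0.0847 with no filter on dim probes. Median centring gave 0.37 (adjusted p = 6.90e-07 by limma), or 0.19 relative to the median of all genes. Usp7 encodes a deubiquitinase that removes ubiquitin from both p53 and Mdm2. Its brightest feature, with signals of 13417 and 13380 in the control and 14777 and 14887 after depletion, had log2 ratios of 0.11 and 0.13 and did not pass after adjustment (mean 0.12 ± 0.018, SD, n = 2; adjusted p = 0.0558 by limma). It did pass after adjustment in the deposited table (0.19, adjusted p = 0.0404 by limma). It also passed when only features well above background in both channels were tested (adjusted p = 0.0460 by limma). With median centring its ratio was 0.46 (adjusted p = 2.01e-10 by limma), or 0.28 relative to the median of all genes. Its dimmer feature had ratios of -0.18 and -0.23 (mean -0.21, adjusted p = 0.0125 by limma over all features). The features of Usp7 therefore differed in sign on both arrays, by -0.33 on average, and no direction can be given for the gene.

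Ppm1d encodes Wip1, a phosphatase that removes phosphate from p53 and from the kinases that act on it. Its signal was 486 in the control and 705 after depletion on the first array, and 464 and 731 on the second. Both AIMP3-depleted values were above both control values. The log2 ratios were 0.51 and 0.59, and the mean was 0.55 ± 0.054 (SD, n = 2; adjusted p = 0.000239 by limma). Its 95% interval ran from 0.44 to 0.66. This is 1.47-fold, just short of the threshold, which was passed on the array of replicate 2 alone. Ppm1d was counted as raised with the processed signals (0.60), in the authors' deposited table (0.64) and with median centring (0.75), although relative to the median of all genes the last value was 0.57, short of 1.5-fold. The log2 ratio of Mdm2 exceeded that of Ppm1d by 0.56 and 0.46 on the arrays of replicates 1 and 2.

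Trp53bp1 encodes 53BP1, a protein that binds p53 and takes part in the repair of DNA double-strand breaks. Its brightest feature had signals of 1193 and 1073 in the control and 944 and 816 after depletion. The log2 ratios were -0.33 and -0.27, with a mean of -0.30 ± 0.047 (SD, n = 2; adjusted p = 0.00223 by limma). The dimmer feature had ratios of 0.01 and -0.10 (adjusted p = 0.485 by limma over all features). Median centring brought the ratio of the gene to -0.09 (adjusted p = 0.250 by limma), or -0.27 relative to the median of all genes. Trp53bp1 and Mdm4 were the lowest of the 8 members by their brightest features, and their intervals, from -0.41 to -0.19 and from -0.40 to -0.19, overlapped almost wholly.

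**Figure D3:**
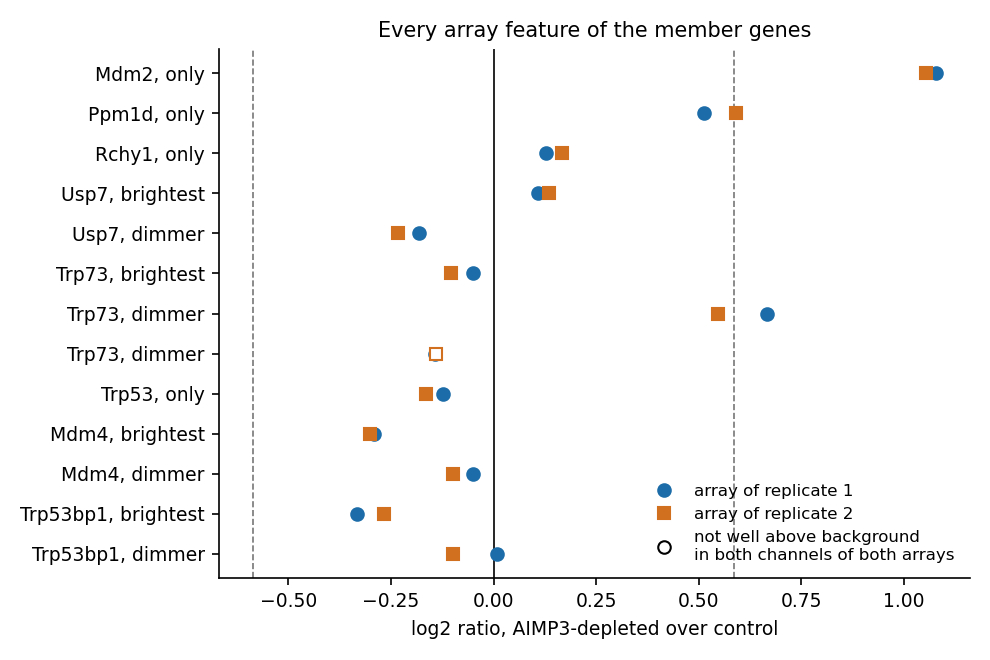
Log2 ratio of each of the 13 features of the 8 genes on the arrays of replicate 1 (circles) and replicate 2 (squares), with dashed lines at 1.5-fold. Open symbols mark the feature of Trp73 that was not well above background in every channel, and the features of Trp73 and of Usp7 fall on both sides of 0.

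The order of the log2 ratios by brightest feature was Mdm2, Ppm1d, Rchy1, Usp7, Trp73, Trp53, Mdm4 and Trp53bp1, and the differences between neighbours were taken within each array, with no test. Each was set against its own SD and against the median SD of a gene between the arrays (0.048). Ppm1d exceeded Rchy1 by 0.40 ± 0.026, Usp7 exceeded Trp73 by 0.20 ± 0.055 and Trp53 exceeded Mdm4 by 0.15 ± 0.020 (SD, n = 2), all larger than both. Neither SD holds a difference between the dyes for a gene, which both arrays would share as the dyes were not swapped. On the array of replicate 2 the 2 spots of Trp53 (-0.08 and -0.25) lay further apart than Trp53 and Mdm4 did (0.14). Trp73 exceeded Trp53 by 0.07 ± 0.0086 (SD, n = 2), also larger than both SDs. This mean was no larger than the difference between the 2 spots of Trp53 within an array. On the array of replicate 1 alone the difference between the genes (0.073) was slightly the larger, with spots of Trp53 at -0.089 and -0.158. Under median centring the ratios of Trp73 and Trp53 were 0.057 and 0.052. Rchy1 exceeded Usp7 by 0.02 ± 0.010 (SD, n = 2), less than the median SD, and Usp7 was the higher with processed signals, in the deposited table and with median centring. Mdm4 and Trp53bp1 changed places between the arrays, with differences of 0.04 and -0.04, and did not differ beyond their spread. The places of Usp7, Trp73, Mdm4 and Trp53bp1 hold for the brightest feature alone, since the features of the first pair differ in sign and the dimmer features of Mdm4 (-0.07) and Trp53bp1 (-0.05) lie above the ratio of Trp53. Under the 5 ways of scaling the arrays, Mdm2 ranged from 1.03 to 1.44 and was counted as raised in each. Mdm4 and Trp53bp1 were below 0 in each, with their nearest values to 0 at -0.09. Trp53 and Trp73 were above 0 under median centring, at 0.05 and 0.06, and below 0 in the others.

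**Figure D4:**
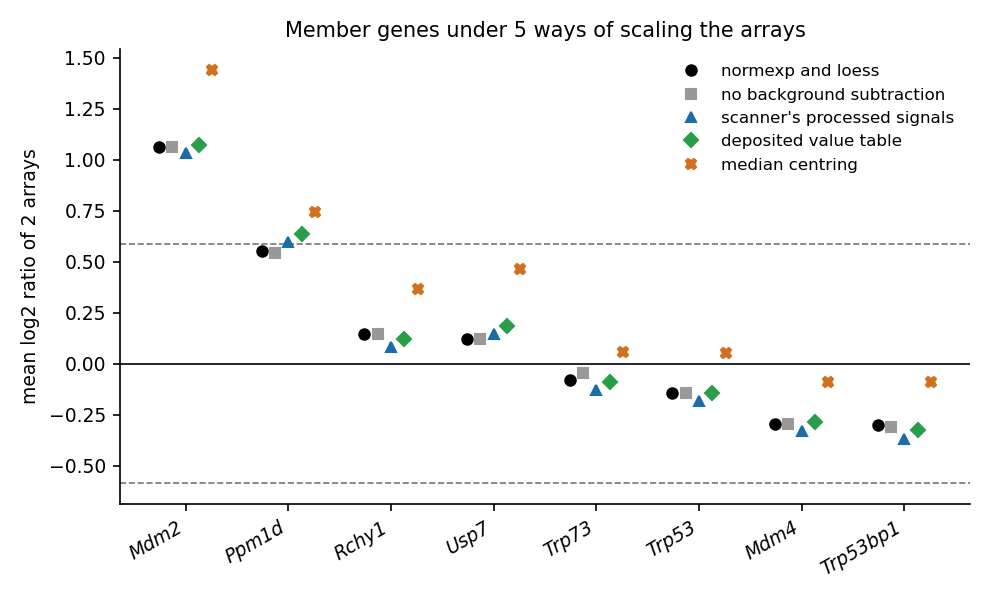
Mean log2 ratio of the 8 genes over the arrays under 5 ways of scaling, with dashed lines at 1.5-fold. Median centring (crosses) lies above the others for each gene, as it does for the median of all genes (0.18), and Ppm1d passes the upper line under 3 of the 5, 1 of which is median centring, where it is 0.57 relative to that median.

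The other genes that act on p53 or Mdm2 protein were examined in 5 lists with 64 genes in all, which were chosen with earlier results of these data known. By the threshold 3 of the 64 were raised and 1 was lowered, beside 5.52% and 0.791% of all genes, and their median log2 ratio was -0.01. Among 15 other ubiquitin ligases and deubiquitinases, 0 were raised and 1 was lowered. This was Usp28, a deubiquitinase that binds 53BP1, with log2 ratios of -0.87 and -0.94 (adjusted p = 5.33e-05 by limma). The highest of that list was Syvn1, at 0.31.

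Among 9 genes for proteins that bind and restrain Mdm2, 2 were raised and 0 lowered, beside 5.52% and 0.791% of all genes. Only 4 of these 9 had an adjusted p under 0.05 by limma at any fold. Of the 4, 3 were higher and 1 was lower, beside 30.6% and 23.7% of all genes. The raised genes were Cdkn2a and Rpl23. Cdkn2a, whose locus encodes the Mdm2 inhibitor Arf and the cyclin-dependent kinase inhibitor p16 from overlapping transcripts, had log2 ratios of 0.78 and 1.16 (adjusted p = 0.000323 by limma), which differed more between the arrays than those of the members. The files do not give which of the transcripts its feature reads. Rpl23, a ribosomal protein that binds Mdm2, had ratios of 0.78 and 0.75 (adjusted p = 7.38e-05 by limma). The lowest of the list was Ncl, the gene of nucleolin, at -0.48. The other ribosomal genes of the list did not pass, and 1 gene of this list in place of 2 passed with the mean of all features of a gene, with processed signals, in the deposited table and by the methods' t-test. With median centring 4 genes of the list passed, and at 2-fold 0.

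Among 13 kinases, 1 passed the threshold. This was Csnk1d, a casein kinase, with 0.61 and 0.66 (adjusted p = 0.000135 by limma), and 0 of the kinases passed when all features of a gene were averaged. The lowest was Chek2, a checkpoint kinase, with a mean of -0.54 (adjusted p = 0.000214 by limma), short of 1.5-fold. At any fold, 4 kinases were higher and 7 lower at an adjusted p under 0.05, beside 30.6% and 23.7% of all genes. None of the 12 genes for enzymes that modify lysines of p53 changed by limma (0 genes, with 3 at an unadjusted and 3 at an adjusted p under 0.05 at any fold, beside 60.5% and 54.3% of all genes), with Setd7, a methyltransferase, highest at 0.51 and Kdm1a, a demethylase, lowest at -0.15. None of the 15 cofactors changed either (0 genes, with 7 at an unadjusted and 6 at an adjusted p under 0.05 by limma, beside the same shares), with Ppp1r13l highest at 0.52 and Hnrnpk lowest at -0.31.

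Mdm2 and Ppm1d are also p53-activated genes, and the other such genes were taken from a list of 44 that leaves the members out. Of these 12 were raised and 0 were lowered by limma, beside 5.52% and 0.791% of all genes. A mean log2 ratio above 0 was found for 37 of the 44 and for 52.7% of all genes, and 36 had an adjusted p under 0.05 at any fold, 32 of them higher and 4 lower, beside 30.6% and 23.7% of all genes. The median was 0.33 in replicate 1 and 0.37 in replicate 2, beside 0.02 and 0.02 for all genes. The raised genes included Plk2, a polo-like kinase, with a mean of 1.43 ± 0.18 (SD, n = 2), and Cdkn1a, the cyclin-dependent kinase inhibitor p21, with 1.21 ± 0.16 (SD, n = 2). Perp, Phlda3, Ccng1, Fas, Btg2, Trp53inp1, Thbs1, Sfn and Dcxr passed as well, and Dcxr had the lowest ratio among them, at 0.59. The fibroblast and endoderm markers given above were higher in the same 2 samples, and their part in these values was not tested. The lowest of the list was Ddit4, which differed between the arrays, with 0.02 and -0.60 (adjusted p = 0.103 by limma). The log2 ratio of Mdm2 was within the range of the raised genes of this list, and that of Ppm1d lay just under it.

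**Figure D5:**
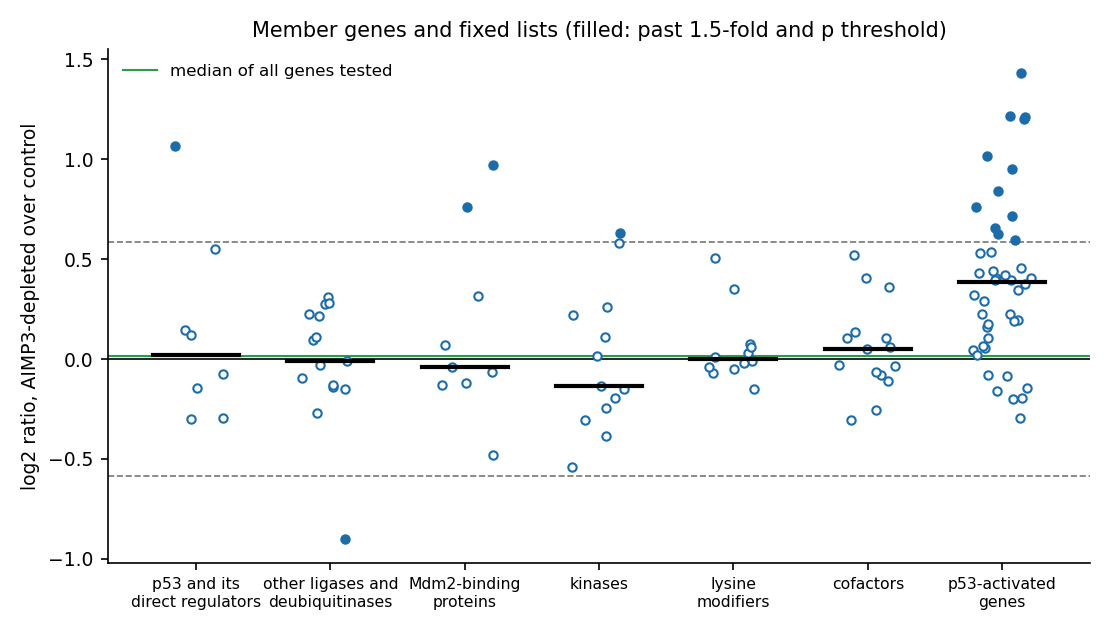
Mean log2 ratio over the arrays of each member gene and of each gene in 6 fixed lists, with black bars at the list medians, a green line at the median of all genes and dashed lines at 1.5-fold. Filled points passed the threshold, and 12 of the 44 p53-activated genes did, against 3 raised and 1 lowered of the 64 other regulators.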

How the data were processed

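RNA of 2 AIMP3-depleted replicates and of 1 control pool was measured on 2 two-colour arrays. What the authors deposited for each array is scanner output (Agilent Feature Extraction 11.5.1.1 by the file header), holding spot and local background intensity, not normalized. They deposited beside it processed signals, background-subtracted and dye-normalized by the scanner software, and its log10 ratio, which was not used here. The value table they deposited, made with GeneSpring, holds log2 ratios. It equals the log2 ratio of the processed signals plus 0.040 and 0.039 on the arrays of replicates 1 and 2, within 0.01 for 99.9% and 99.8% of probes. Its column medians were 0.09 and 0.11, and what this offset stands for is unknown. Every column of that table belonged to a labelled sample (0 did not).

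Direction and groups were taken from the dyes and sources in the labels. Median signals were used, as there is no mean signal column. Background was corrected by normexp (offset 50), ratios were normalized by loess with control spots at weight 0, and outlier-flagged spots (215 and 227) were left out. Spots of a probe were averaged. A probe was tested if on each array 1 channel or more was well above background (33022 of 55681), and the brightest probe stood for a gene. The median SD between arrays was 0.048 on the log2 scale. The mean ratio was set against 0 by limma 3.58.1 (lmFit, eBayes) in R 4.3.3 (1 residual and 5.25 prior degrees of freedom), with Benjamini-Hochberg adjustment over 24031 genes, or over all tested probes for single features. An exact permutation of the signs of 2 arrays cannot give a two-sided p below 0.5, so the adjusted p-values rest on the spread shared across genes, and since no label says that replicates were separate cultures, they measure only the spread between these samples, which may be technical. The number of arrays limits the precision. Names came from RefSeq tables on GRCm38.p6 through accessions, which matched 14981 of the genes tested. The steps were tested on simulated data.

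The members, lists, thresholds and the rule for named genes were chosen with earlier results of these data known. The rule names the members with all their features, Eef1e1, list genes past the threshold, and at most the highest and lowest of a list otherwise. The value of 1 gene of the p53-activated list is not reported here. Alternatives were no background subtraction, processed signals, median centring, the deposited table, 2 other filters for dim probes, averaging a gene's probes, the methods' t-test, a 2-fold threshold, and each replicate left out.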

Additional observations from a re-analysis of the deposited data

How the results depend on the processing

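Of 165 alternative values for the members and lists, 136 kept their direction and, where tested, their side of the threshold, or were counts within 1.5 times of the main count. Another 3 were stronger, 4 were reversed in sign and 22 counts moved further. The 2-fold threshold and the methods' t-test reuse the main ratios of the members, so those could not change direction. A loss of the adjusted p, as for Mdm4 and Trp53bp1 with median centring, was not counted as a change. Mdm2 stayed raised in each alternative, from 1.03 to 1.44. Ppm1d was raised with processed signals (0.60), in the deposited table (0.64) and with median centring (0.75, or 0.57 relative to the median of all genes), so that 2 members changed under each of these, and between 1 and 2 when 1 replicate was left out (2 without replicate 1, where Ppm1d passed at 0.59). Median centring turned Trp53 to 0.052 and Trp73 to 0.057, and it shifted the median of all genes to 0.18. The mean of all features of a gene turned Trp73 to 0.13 and Usp7 to -0.042, since it includes the features of opposite sign. With median centring 3 cofactors, 2 kinases, 2 lysine modifiers, 4 Mdm2-binding genes, 3 other ligases or deubiquitinases and 24 p53-activated genes changed. Over all 24031 genes that setting gave 2823 raised and 65 lowered, against 1327 and 190 in the main setting. With a 2-fold threshold 0 kinases, 0 Mdm2-binding genes, 0 other ligases or deubiquitinases and 5 p53-activated genes changed. Over all genes it gave 281 raised and 17 lowered. The mean of all features gave 0 kinases and 1 Mdm2-binding gene, processed signals 2 and 1, the deposited values 3 and 1, and the methods' t-test 1 Mdm2-binding gene. Leaving out 1 replicate gave between 1 and 2 kinases (2 without replicate 1) and between 11 and 13 p53-activated genes, as values with no test.

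Over all genes 1327 were raised and 190 lowered (87.5% raised of those changed), against 1944 and 772 (71.6%) with processed signals, 2131 and 617 (77.5%) in the deposited table, 2823 and 65 (97.7%) with median centring, 281 and 17 (94.3%) at 2-fold, and 864 and 128 by the methods' t-test. That test left 0 genes after Benjamini-Hochberg adjustment, and 3 members had an unadjusted p under 0.05 by it. The median signal over background, between 2.68 and 3.31, limits dim features such as the 2 dimmer ones of Trp73. No paired analysis was possible because the labels give 1 group of samples, with the control only as a pool.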
